A study of Mus musculus with 6 samples.

Results

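The genes described here form the insulin-like growth factor (IGF) axis, read here in mouse biliary epithelial cells, which form the lining of hepatic bile ducts. They were chosen by symbol: the ligand gene Igf1, the receptor genes Igf1r and Insr, and the IGF-binding protein genes Igfbp1 to Igfbp7. All 10 were found, each in 1 row, among the 25302 rows of the expression table. RNA was sequenced from 3 samples labelled Control and 3 labelled Sox9cKO. Both groups were homozygous for floxed Sox9 (Sox9fl/fl), the gene of a transcription factor of bile duct cells, and only the Sox9cKO samples also carried 1 copy of AlbCre (Sox9fl/fl:AlbCre+/-), a Cre recombinase transgene under the albumin promoter. No sample of the design carried AlbCre without floxed Sox9, so presence of Cre and reduction of Sox9 cannot be told apart. Age, sex, treatment, cell isolation and any pooling of animals are not given in the sources used here. Because nothing states that the samples came from separate animals, p-values measure the spread between these samples, which may be in part technical.

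IGF-I is a secreted hormone and local growth factor made mainly by hepatocytes under growth hormone. It binds the IGF-I receptor and, more weakly, the insulin receptor, tyrosine kinases that act through insulin receptor substrate proteins on the PI3K, AKT and FOXO route. IGF-binding proteins hold IGFs away from the receptor, carry them in blood or release them when cut by proteases such as PAPP-A, and stanniocalcins block that protease.

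Sequencing depth lay between 11883496 and 16191990 reads assigned to genes per sample. Values are normalized reads, that is, reads divided by 1 size factor of the sample (0.868 to 1.19). Sox9 reads, as a check of the labels, lay between 6043 and 6293 in Control and between 3165 and 3363 in Sox9cKO (log2 fold change -0.91, adjusted p 0.00501). The bile duct keratin gene Krt19 was abundant (11480 to 26648 normalized reads), and markers of other cells were present too. The 10 biliary markers summed to 72322 to 117155 normalized reads, the 14 hepatocyte genes to 19012 to 37204 and the 11 endothelial genes to 1826 to 41372. Spp1 alone held 30026 to 74187 of the biliary sum, and Alb alone 17384 to 35363 of the hepatocyte sum. Of the endothelial sums, 12684, 40167 and 1826 belonged to Control replicates 1 to 3 and 31635, 41372 and 6656 to Sox9cKO replicates 1 to 3. In bulk RNA, fewer cells of a type and less RNA per cell cannot be told apart. Xist stood at 27852 to 32279 normalized reads in Control replicates 1 and 3 and Sox9cKO replicate 1 and at 6.50 to 10.2 in the other samples, so the sexes were mixed within both groups.

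Promoter stretches of the 3 genes that rose in Sox9cKO are shown, 1 of which carries a well-known hormone response sequence. They are the 250 bases before the transcription start listed by RefSeq on GRCm38.p6, read 5′ to 3′ on the strand of the gene. The intervals are chr11:7197537-7197786 on the plus strand for Igfbp1, chr11:7213924-7214173 on the minus strand for Igfbp3 and chr10:87860861-87861110 on the plus strand for Igf1. The expression table was made on another build (GRCm39, per the submitters' processing notes) and holds no coordinates. Capitals mark both boxes of the insulin response element, through which FOXO factors raise and insulin lowers Igfbp1 transcription.
Igfbp1: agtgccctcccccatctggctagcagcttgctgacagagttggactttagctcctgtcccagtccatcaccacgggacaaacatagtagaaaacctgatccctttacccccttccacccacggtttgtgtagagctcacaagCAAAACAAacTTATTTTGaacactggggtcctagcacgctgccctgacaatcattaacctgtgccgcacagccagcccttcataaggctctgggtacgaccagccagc
Igfbp3: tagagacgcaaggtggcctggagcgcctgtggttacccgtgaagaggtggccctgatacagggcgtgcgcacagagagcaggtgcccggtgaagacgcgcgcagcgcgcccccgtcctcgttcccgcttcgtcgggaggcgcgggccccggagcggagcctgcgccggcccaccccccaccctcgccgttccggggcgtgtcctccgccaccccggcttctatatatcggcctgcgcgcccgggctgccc
Igf1: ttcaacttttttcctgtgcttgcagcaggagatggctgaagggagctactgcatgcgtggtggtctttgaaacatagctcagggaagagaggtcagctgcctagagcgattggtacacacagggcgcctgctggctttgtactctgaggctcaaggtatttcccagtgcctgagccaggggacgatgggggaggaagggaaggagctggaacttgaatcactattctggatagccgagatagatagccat
The boxes, CAAAACAA and TTATTTTG, lay at positions -108 to -101 and -98 to -91 of Igfbp1. Each was searched on both strands in the same 250 bases of all 32851 promoters listed, where CAAAACAA occurred in 2.21% and TTATTTTG in 1.49%. CAAAACAA, 2 bases of any kind and TTATTTTG, in that order on either strand, occurred in 1 promoter of the table, that of Igfbp1. The GC content was 53.2% for Igfbp1, 52.8% for Igf1 and 73.2% for Igfbp3, against a median of 52.4% over the table. Neither box nor the FOXO consensus GTAAACA (3.17% of promoters) was found in the stretches of Igfbp3 and Igf1. The SOX core ACAAT (27.7% of promoters) was found once among the 9 genes with a listed promoter, at -62 to -58 of Igfbp1. A match describes letters only and is not evidence of binding. No promoter of Insr is shown.

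The comparison of Sox9cKO with Control asked which genes of the axis differ between samples with and without AlbCre, where Sox9 reads were reduced and not absent. Of the 10 genes, 9 averaged 10 or more normalized reads over the samples and were tested, and 3 of these rose (adjusted p under 0.05), namely Igf1, Igfbp1 and Igfbp3. None fell (limma; with an unadjusted p under 0.05, 6 were higher and 0 lower, and edgeR and DESeq2 also called 0 lower). Over all 17153 genes tested, 2.97% were called, 2.03% as higher and 0.939% as lower. EdgeR called 3 of the 9 as higher, where it called 2.86% of all genes, and DESeq2 called 4, where it called 7.08%. The 3 Sox9cKO values lay above all 3 Control values for 6 of the 9 genes, Igf1, Igfbp1, Igfbp3, Igfbp4, Igfbp6 and Igfbp7, which holds for 13.4% of all genes tested (24.2% in either direction). The median log2 fold change of the 9 genes was 1.21, against 0.036 for all genes tested. With the replicate number as a block, a pairing that the titles do not state, Igfbp4 and Igfbp7 were called as well, making 5 higher. That fit called 8.05% of all genes (5.06% as higher and 2.99% as lower). EdgeR with the block also called 5 of the 9, and 6.76% of all genes.

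**Figure D1:**
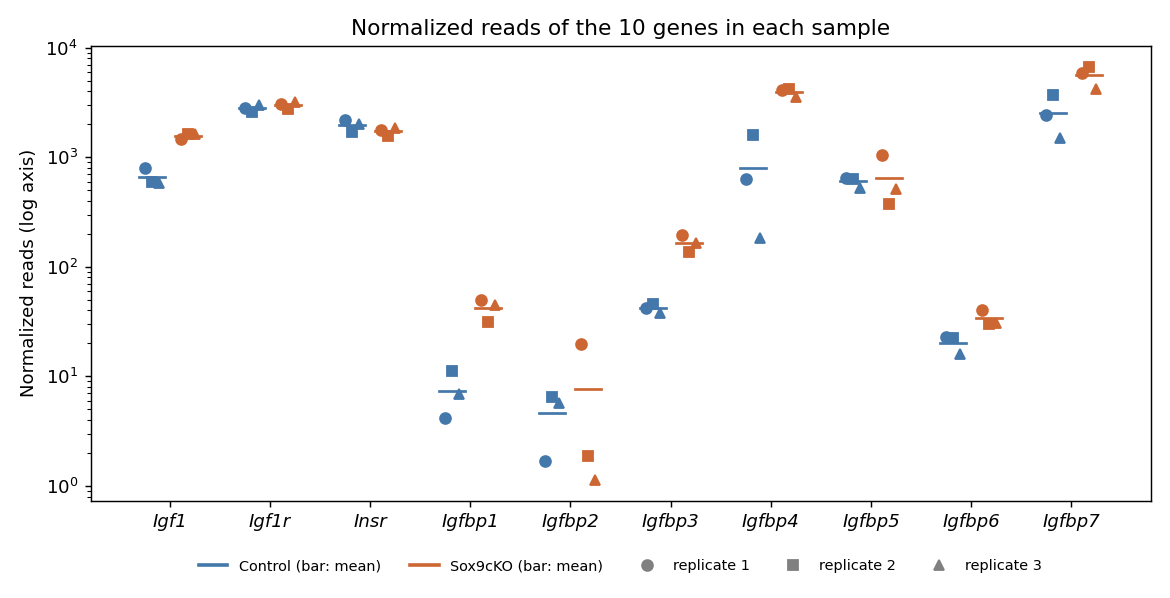
Normalized reads (log axis) of the 10 genes in each of the 6 samples, with blue for Control, orange for Sox9cKO, marker shapes for replicates 1 to 3 and a bar at each group mean. The Sox9cKO points of Igf1, Igfbp1, Igfbp3, Igfbp4, Igfbp6 and Igfbp7 lie above every Control point, while those of Igf1r, Insr, Igfbp2 and Igfbp5 overlap with Control.

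Igf1 (ENSMUSG00000020053), the ligand gene, stood at 799, 599 and 589 normalized reads in Control replicates 1 to 3 and at 1458, 1646 and 1631 in Sox9cKO replicates 1 to 3. Every Sox9cKO sample was thus well above the highest Control sample, and the spread within each group was small. The mean rose 2.38-fold, from 662 ± 119 to 1578 ± 105 (SD, n = 3). On the log2 scale the change was 1.26 (SE 0.15, adjusted p 0.00715). Igf1 kept its call in all 18 alternative fits, with log2 fold changes from 1.16 to 1.41. Within replicate numbers the ratio of Sox9cKO to Control was 1.82, 2.75 and 2.77. In the same order of samples, the hepatocyte sum was 30215, 19012 and 20684 for Control and 35131, 23076 and 37204 for Sox9cKO. Alb alone made up 27683, 17384 and 18944 of these Control sums and 32147, 21399 and 35363 of the Sox9cKO sums. The sum thus mainly reads Alb and not hepatocyte genes in general. Control replicate 1 was the highest Control sample for both the sum and Igf1. Among the Sox9cKO samples, replicate 2 had the lowest sum (23076) and the highest Igf1 value (1646). The part of hepatocyte RNA in the Igf1 result was not tested.

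The receptors differed little. Igf1r (ENSMUSG00000005533), the gene of the IGF-I receptor, had 2838, 2617 and 3001 normalized reads in Control and 3046, 2777 and 3172 in Sox9cKO. The ranges overlap, and the log2 fold change was 0.09 (95% interval -0.17 to 0.35, adjusted p 0.731). Insr (ENSMUSG00000005534), the gene of the insulin receptor, had 2171, 1719 and 2023 in Control and 1771, 1576 and 1854 in Sox9cKO. Here too the ranges overlap, with a log2 fold change of -0.18 (95% interval -0.49 to 0.12, adjusted p 0.530). The ratio of Igf1r to Insr reads, in which the size factor cancels, was 1.31, 1.52 and 1.48 in Control and 1.72, 1.76 and 1.71 in Sox9cKO. It was thus higher in each Sox9cKO sample than in any Control sample, a difference that is described and was not tested.

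Igfbp3 (ENSMUSG00000020427), which encodes the main carrier of IGFs in blood, had 42.0, 45.5 and 38.0 normalized reads in Control and 197, 137 and 166 in Sox9cKO. The Control samples were nearly level, and the lowest Sox9cKO sample (137) was far above the highest of them (45.5). The mean rose 3.99-fold, from 41.8 ± 3.73 to 167 ± 30.0 (SD, n = 3). The log2 fold change of Igfbp3 was 1.96 (SE 0.21, adjusted p 0.00553), and all 18 alternative fits called it, at 1.83 to 2.09.

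Igfbp1 (ENSMUSG00000020429), a short-lived liver-secreted binding protein that insulin represses, was scarce in Control, at 4.20, 11.1 and 6.91 normalized reads, or 5, 12 and 6 whole reads. In Sox9cKO it had 49.7, 31.2 and 45.3. No samples overlapped, and the mean was 5.67-fold higher, at 42.1 ± 9.69 against 7.42 ± 3.49 (SD, n = 3). The log2 fold change was 2.41 (SE 0.42, adjusted p 0.0291), understated by the pseudocount at such low reads. The call was lost without Control replicate 1 (adjusted p 0.0990), Control replicate 3 (0.0983), Sox9cKO replicate 1 (0.0896), replicate 2 (0.0627) or replicate 3 (0.0918), while the fold change stayed between 2.11 and 2.72. With Xist as a covariate it was 2.33 (adjusted p 0.0704).

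Igfbp1 and Igfbp3 are neighbouring genes that point towards each other in the RefSeq annotation, between Adcy1 and Tns3. Both rose, whereas of the outer pair, looked up after the results were known, Adcy1 had a log2 fold change of 0.54 (adjusted p 0.569) and Tns3 of 0.77 (adjusted p 0.187, and 0.0178 when blocked). The other neighbouring pair of the family, Igfbp2 and Igfbp5, showed no such shift. Igfbp2 (ENSMUSG00000039323) was not tested because it had only 1.68, 6.50 and 5.76 normalized reads in Control and 19.9, 1.89 and 1.13 in Sox9cKO, so that Sox9cKO replicate 1 alone stood out. Igfbp5 (ENSMUSG00000026185), a matrix-bound binding protein, had 645, 639 and 529 in Control and 1052, 372 and 513 in Sox9cKO. The Sox9cKO samples of Igfbp5 fell on both sides of the Control range, and its log2 fold change was -0.04 (95% interval -0.86 to 0.79, adjusted p 0.971).

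**Figure D2:**
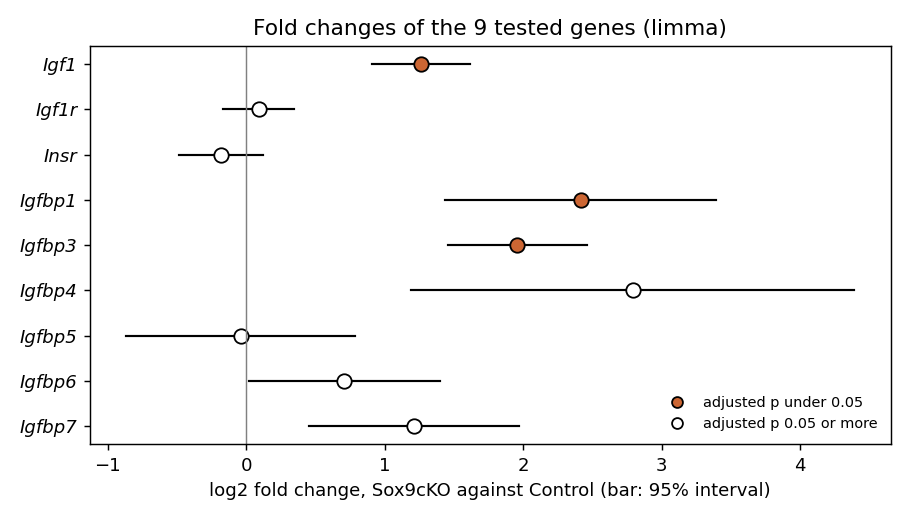
Log2 fold change of Sox9cKO against Control (points) with its 95% interval (bars) for the 9 tested genes, filled where the adjusted p was under 0.05 without the replicate block. Igf1, Igfbp1 and Igfbp3 are filled, Igfbp4 has the largest value (2.79) and the widest interval (1.19 to 4.39), and the intervals of Igf1r, Insr and Igfbp5 span 0.

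Igfbp4 (ENSMUSG00000017493), a binding protein that restrains IGF action until PAPP-A cuts it, had the largest log2 fold change of the 9 and the least even Control group. It stood at 640, 1591 and 182 normalized reads in Control and at 4123, 4242 and 3526 in Sox9cKO. The Sox9cKO samples were alike and all far above the Control samples, which spanned nearly an order of magnitude. The means were 804 ± 719 and 3964 ± 383 (SD, n = 3), a 4.93-fold difference. On the log2 scale it was 2.79 (SE 0.68), with an adjusted p of 0.0868 without the replicate block and 0.0178 with it. Without Control replicate 2 the log2 fold change was 3.53 (adjusted p 0.0187).

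Igfbp7 (ENSMUSG00000036256), a distant family member with weak IGF affinity that vascular cells secrete, showed the same order of samples. It had 2417, 3680 and 1516 normalized reads in Control and 5850, 6739 and 4249 in Sox9cKO. The groups did not overlap, and the means were 2538 ± 1087 and 5613 ± 1262 (SD, n = 3), 2.21-fold apart. The log2 fold change was 1.21 (SE 0.32), with an adjusted p of 0.109, and of 0.00412 when blocked by replicate number. Without Control replicate 2 it was 1.53 (adjusted p 0.0409). DESeq2 gave an adjusted p of 0.0115.

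The spread of Igfbp4 and Igfbp7 among the Control samples followed the endothelial sum, which was highest in replicate 2 and lowest in replicate 3 in each group. The sums overlapped between groups, and the reads of Igfbp4 and Igfbp7 did not. Within replicate numbers 1 to 3, the sum was higher in Sox9cKO each time (31635 against 12684, 41372 against 40167 and 6656 against 1826). In the same order, the ratio of Sox9cKO to Control was 6.45, 2.67 and 19.4 for Igfbp4 and 2.42, 1.83 and 2.80 for Igfbp7. With the log2 endothelial sum as a covariate, an alternative chosen after the data were examined, the log2 fold change was 2.23 for Igfbp4 (limma, adjusted p 0.0145) and 0.92 for Igfbp7 (adjusted p 0.00650). All 11 endothelial markers had positive log2 fold changes, with a median of 1.04 and none called (limma; 1 had an unadjusted p under 0.05, and edgeR and DESeq2 called 0). With the replicate block, which called Igfbp4 and Igfbp7, 2 of these 11 markers were called higher as well. They were Egfl7 (adjusted p 0.0356) and Vwf (adjusted p 0.0420), where the block called 5.06% of all genes higher. The part of endothelial RNA in the differences of Igfbp4 and Igfbp7 was not tested. Igfbp6 (ENSMUSG00000023046), which prefers IGF-II, had 22.7, 22.3 and 16.1 normalized reads in Control and 40.8, 30.2 and 30.6 in Sox9cKO. These groups did not overlap either, but the log2 fold change of 0.71 was not called (adjusted p 0.268, or 0.181 with the block).

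**Figure D3:**
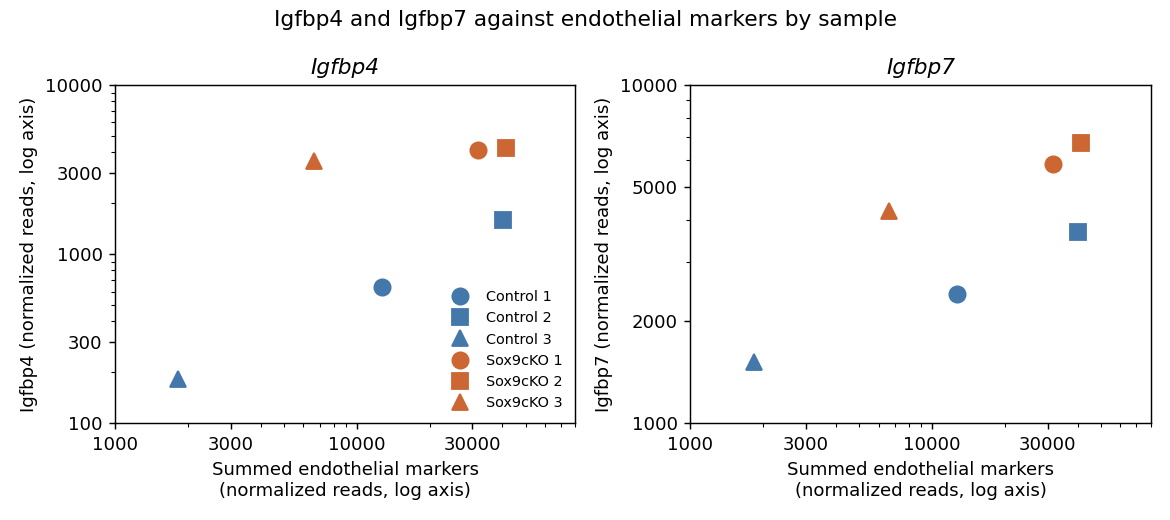
Normalized reads of Igfbp4 and Igfbp7 against the summed normalized reads of 11 endothelial markers in each sample, all axes logarithmic. Every Sox9cKO point (orange) lies above every Control point (blue), and among Control samples both genes are lowest in replicate 3 and highest in replicate 2.

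Levels of different genes were compared per kilobase of annotated exon (GENCODE M21), which is the union over all transcripts and so may understate genes with many long forms. In Control the order was Igfbp7 (2099 ± 899 normalized reads per kilobase), Igfbp4 (182 ± 163), Igf1r (168 ± 11.5), Insr (143 ± 16.8), Igfbp5 (101 ± 10.9), Igf1 (66.9 ± 12.0), Igfbp6 (18.3 ± 3.31), Igfbp3 (13.4 ± 1.19), Igfbp1 (4.86 ± 2.29) and Igfbp2 (2.52 ± 1.40). Neighbours whose means lay within their SDs were Igfbp4 and Igf1r, Igf1r and Insr, and Igfbp1 and Igfbp2. The SD of Igfbp4 also reached those of Insr, Igfbp5, Igf1 and Igfbp6. Its Control samples were uneven (640, 1591 and 182 normalized reads), so its rank in Control is uncertain. In Sox9cKO, Igfbp7 (4642 ± 1044 per kilobase) and Igfbp4 (898 ± 86.8) had the highest means, here apart from the other genes by their SDs. Igf1 (159 ± 10.6) came to lie within the SDs of Igf1r (179 ± 12.0) and above Insr (126 ± 10.4). Igfbp3 (53.3 ± 9.58 per kilobase) passed Igfbp6 (30.5 ± 5.39) there, and Igfbp6 was within the SDs of Igfbp1 (27.6 ± 6.35). Igfbp5 (107 ± 59.7 per kilobase) lay between Insr and Igfbp3 in Sox9cKO and was within the SDs of both.

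By a fixed rule, the 2 genes whose log2 values over the 6 samples were most like each called gene were sought among the 9940 genes averaging 100 or more normalized reads. For Igf1 they were Elovl2 (r = 0.998), an elongase of polyunsaturated fatty acids, and Tubgcp4 (r = 0.996), a gene of the gamma-tubulin complex that was itself not called (adjusted p 0.107). For Igfbp1 they were Lrg1 (r = 0.997), a secreted acute phase glycoprotein, and Hsd17b2 (r = 0.996), a steroid dehydrogenase. For Igfbp3 they were Itpripl2 (r = 0.997) and the prothrombin gene F2 (r = 0.997). With 6 samples in 2 groups, such values describe a shared step between groups and carry no test. Of these genes Elovl2 had the second largest step, from a mean of 30.5 to 310 normalized reads (log2 fold change 3.39, adjusted p 0.00475), after Hsd17b2, from 35.9 to 405 (3.63, adjusted p 0.00734).

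The rest of the pathway was read from 7 lists holding 59 genes, of which 57 were in the table and 52 were tested. Of the 52, 3 rose (5.77%, against 2.97% of all genes) and none fell (limma; 7 were higher and 6 lower at an unadjusted p under 0.05, edgeR called 0 lower and DESeq2 2 lower). Their median log2 fold change was -0.019. With the replicate block 6 of the 52 were called higher and 2 lower, where 5.06% of all genes were called higher and 2.99% lower. The 3 called genes act on IGF availability or upstream of Igf1, and no gene of the intracellular route was among them.

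Pappa, the gene of the protease PAPP-A that cuts IGFBP4, had 36.1, 38.1 and 31.1 normalized reads in Control and 99.5, 74.7 and 95.1 in Sox9cKO. The groups were far apart and the Control samples level (log2 fold change 1.32, SE 0.23, adjusted p 0.0284). Stc2, which encodes the PAPP-A inhibitor stanniocalcin-2, had 22.7, 10.2 and 35.7 in Control and 204, 137 and 172 in Sox9cKO. It had the largest change of the 52 genes, at 7.48-fold between means (log2 fold change 2.99, SE 0.44, adjusted p 0.0151). Thus the binding protein, its protease and the inhibitor of that protease were all higher in Sox9cKO, although Igfbp4 was not called without the block. Igfals, the acid-labile subunit that joins IGF-I and IGFBP3 in the circulating complex and named here after its values were seen, had 36.1, 37.1 and 59.9 against 88.5, 149 and 162. Its log2 fold change was 1.56 (adjusted p 0.0520, or 0.0110 with the block). The other tested genes of this list, Stc1, Htra1, Adam12 and Igfbpl1, had adjusted p-values of 0.733 or more. Pappa lost its call in each of the 6 fits that left out 1 sample (adjusted p 0.0581 to 0.114). Stc2 lost it without Control replicate 1 (0.0718), Sox9cKO replicate 1 (0.0593) or Sox9cKO replicate 3 (0.0599).

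In the growth hormone list, Ghr, the receptor through which growth hormone raises Igf1, had 165, 188 and 137 normalized reads in Control and 423, 272 and 461 in Sox9cKO. No samples overlapped (log2 fold change 1.21, SE 0.24, adjusted p 0.0455). Its call was lost in 5 of the 6 fits that left out 1 sample, (adjusted p 0.0674 to 0.160) but not without Sox9cKO replicate 2 (0.0266), and was lost with quantile normalization (0.0564). Socs2, a growth hormone-induced brake on that receptor and named after its values were seen, had 1224, 1838 and 2138 against 2406, 3718 and 3213 (log2 fold change 0.86, adjusted p 0.125, or 0.00938 with the block). Jak2, Stat5a, Stat5b and Cish of the same list had log2 fold changes between -0.21 and -0.073, none called (limma adjusted p 0.682 or more; none had an unadjusted p under 0.05, and edgeR and DESeq2 called 0).

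No gene of the intracellular lists was called (limma; 2 were higher and 6 lower at an unadjusted p under 0.05, edgeR called 0 and DESeq2 2, both lower). Of 12 docking proteins, adaptors and receptor inhibitors, Irs2, a docking substrate of the insulin and IGF-I receptors, had the smallest p, with 2523, 2018 and 2639 normalized reads in Control and 1538, 1357 and 1726 in Sox9cKO. The groups did not overlap, and the log2 fold change was -0.63 (95% interval -0.98 to -0.28, adjusted p 0.0787, 0.0123 with the block and 0.0476 with quantile normalization). Among 4 FOXO genes Foxo3 led, with 3855, 2336 and 2916 against 2224, 1600 and 1982 (log2 fold change -0.63, adjusted p 0.174, or 0.0158 with the block). The 20 PI3K, AKT and mTOR genes had a median of -0.019 and a smallest adjusted p of 0.104, for Tsc2 (log2 fold change 0.42). Igf2r, the receptor that clears IGF-II, had a log2 fold change of 0.08 (95% interval -0.17 to 0.34, adjusted p 0.754), and Igf2bp2 one of -0.53 (adjusted p 0.205). Igf2, the second ligand gene, was not tested, with 0.995 to 5.66 normalized reads in all samples, and Insrr, an orphan relative of the receptors, was also under the minimum.

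**Figure D4:**
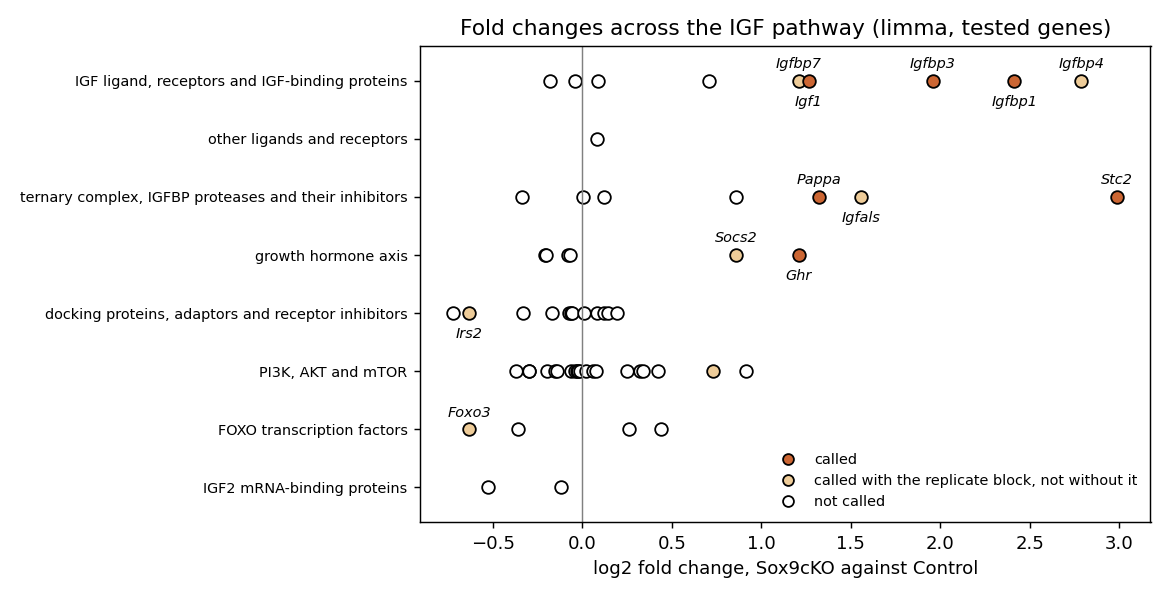
Log2 fold change of each tested gene, by list, for the IGF genes and the 7 pathway lists. Orange marks an adjusted p under 0.05 without the replicate block and beige one only with it, and the called genes outside the first list are Stc2, Pappa and Ghr.

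The values were also set within the samples of like Xist level. Among those with high Xist, Igf1 was at 799 and 589 normalized reads in Control and at 1458 in Sox9cKO, and among those with low Xist at 599 in Control and at 1646 and 1631 in Sox9cKO. Igfbp3 was likewise higher in Sox9cKO in each set, at 197 against 42.0 and 38.0, and at 137 and 166 against 45.5. The groups did not overlap for either gene, so any split of the samples had to give this order. The sets are thus a description and no test of sex. With Xist as a covariate, chosen after the data were examined, limma called Igf1 and Igfbp3 and none of the other members, and of the 52 pathway genes 1. Over all genes it called 359, against 510 without the covariate.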

How the data were processed

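The deposited values are a signal per gene and sample, gene counts divided by 1 size factor per sample, as the deposited values themselves show: 100% were whole multiples of the smallest value of their sample (tolerance 0.001 reads), so whole reads were recovered. GRCm39 and DESeq2 1.36.0 are named, without a role, in the submitters' processing notes; total RNA was depleted of ribosomal RNA and libraries had molecular identifiers, per the labels. Aligner, counter, strand setting and use of the identifiers are not given in the sources used here, so reads of overlapping genes or PCR copies could affect values. No row total was under 10 reads.

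Columns were matched to samples by the bracketed numbers in the titles. The 17153 genes averaging 10 or more normalized reads were tested on log2(value + 1) with limma 3.58.1 in R 4.3.3 (group only, intensity trend, Benjamini-Hochberg over all genes, threshold 0.05, two-sided), which understates folds of scarce genes. Every adjusted p without another tool named is from this fit. The titles give replicate numbers and do not state that equal numbers pair samples. The numbers were taken to pair samples because deviations of same-numbered samples correlated at 0.207, 0.472 and 0.542. These correlations come from the same values as the blocked fits, so they are not separate evidence of pairing. Replicate number 3 joins a Control sample with high Xist (32279 normalized reads) to a Sox9cKO sample with low Xist (10.2). Alternatives included edgeR 4.0.16 and DESeq2 1.42.0 on recovered reads. Scripts were tested on simulated data. Members and lists were chosen with earlier results of these data known. Named were all members, Sox9, called pathway genes and the gene with the smallest p of lists without a call. The genes most like each called member were named too. Igfals and Socs2 are marked as named after their values were seen. Single genes named from the cell type lists fell under no such rule and carry no mark. Exon lengths came from GENCODE M21, promoters and gene neighbours from RefSeq (GRCm38.p6).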

Additional observations from a re-analysis of the deposited data

How the results depend on the processing

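Each result was recomputed in 10 alternative fits and 6 that left out 1 sample, and in 2 chosen after the data were examined (an endothelial and an Xist covariate). Igf1, Igfbp3 and Sox9 kept direction and call in all 18. The number of called members was 5 with the replicate block, 5 for edgeR with the replicate block and 5 with the endothelial covariate, and 2 to 5 when 1 sample was left out. Called pathway genes numbered 8 with the replicate block, 8 for edgeR with the replicate block, 7 for DESeq2 and 1 with the Xist covariate, and 0 to 2 when 1 sample was left out. They were 0 without Control replicate 1 or Sox9cKO replicate 3 (limma; 10 and 15 had an unadjusted p under 0.05). Over all genes the calls numbered 1381 with the replicate block, 1160 for edgeR with the replicate block and 1214 for DESeq2, against 510. All-gene calls were 648 with the endothelial covariate and 359 with the Xist covariate. They were 200 to 389 when 1 sample was left out, fewest without Control replicate 1. Quantile normalization moved the share of higher calls (312 higher, 203 lower, against 349 and 161). Igfbp1 lost its call with the Xist covariate (2.33) and in 5 fits that left out 1 sample (2.11 to 2.72 over all 6), and had too low a mean to be tested at a minimum of 50. Igfbp4 was called with the replicate block (2.79), for edgeR with the replicate block (2.69) and with the endothelial covariate (2.23), and ranged from 1.97 to 3.53 when 1 sample was left out. Igfbp7 was called with the replicate block (1.21), for edgeR with the replicate block (1.17), for DESeq2 (1.10) and with the endothelial covariate (0.92), and ranged from 0.89 to 1.53 when 1 sample was left out. Igfbp5 changed sign for edgeR (0.047), DESeq2 (0.053) and the Xist covariate (0.14), and ranged from -0.46 to 0.29 when 1 sample was left out, never called: without Control replicate 1 (0.010), Control replicate 2 (0.0044), Sox9cKO replicate 2 (0.29) and Sox9cKO replicate 3 (0.056) it was positive. The cause was not tested. The replicate block changed no other call of a member. Depth limits Igfbp2 (at most 20 reads in a sample) and Igfbp1 (at most 12 in Control).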

Other observations

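Other liver-secreted and liver-enzyme genes were not uniformly higher. Positive log2 fold changes were found for 8 of the 13 tested hepatocyte genes, with a median of 0.35. The lowest value was -0.44, for Ttr (limma, adjusted p 0.570). Of 13 tested hepatocyte genes 2 rose (15.4% called, against 2.97% of all genes tested), Tat, a tyrosine-degrading enzyme, from 91.9 ± 28.7 to 437 ± 95.6 normalized reads (SD, n = 3; limma, log2 fold change 2.26, adjusted p 0.00726), and Tdo2, a tryptophan-degrading enzyme, from 13.2 ± 4.02 to 45.9 ± 1.92 (log2 fold change 1.76, adjusted p 0.0321). Alb had a log2 fold change of 0.47 (adjusted p 0.380) and the gluconeogenic gene Pck1 of 0.35 (adjusted p 0.640).

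Of the 7 tested genes of the macrophage and leukocyte list, 1 had a positive log2 fold change and the median was -1.02. That gene, Csf1r, a growth factor receptor of macrophages, was the only one called (14.3% of the 7, against 2.97% of all genes tested), at 705 to 797 normalized reads in Control and 1266 to 1638 in Sox9cKO (limma, adjusted p 0.0142). The other 6 had negative values and were not called, 3 of them with an unadjusted p under 0.05: the leukocyte gene Ptprc (log2 fold change -1.95, adjusted p 0.266), the lysozyme gene Lyz2 (-1.33, adjusted p 0.243, or 0.0417 with the replicate block) and Cd68 (-0.39, adjusted p 0.272). The Control values of Ptprc, Cd68 and Vsig4 all lay above the Sox9cKO values (3 of the 7, where this held for 10.8% of all genes tested). Ptprc (1.13 normalized reads in Sox9cKO replicate 3) and Vsig4 (4.53 to 20.4 over all samples) were scarce. The values of the Kupffer cell marker Clec4f overlapped (13.8 to 82.4 in Control against 12.5 to 56.7 in Sox9cKO). None of the 12 tested stellate cell and fibroblast genes was called (limma; 0 had an unadjusted p under 0.05, and edgeR and DESeq2 called 0).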
